A study of Mus musculus with 12 samples.

Results

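The comparison set RNA of LSK cells from mouse bone marrow libraries labelled U2af1KO against that of LSK libraries labelled WT, with 3 libraries per label, 6 of the 12 libraries of the series. LSK cells are the lineage-negative, Sca-1-positive, c-Kit-positive fraction of marrow, a small population that holds the stem cells and the earliest progenitors. All 4 groups of the series, KO and WT in LSK and in lineage-negative (LinNeg) cells, came from C57BL/6 marrow that was depleted of lineage-positive cells on magnetic columns and flow sorted, and ribosomal RNA was depleted before total RNA was sequenced. The LSK comparison alone also carries the abbreviation BMT, whose meaning is not given in the labels, and they state no allele, Cre driver, sex or age. Nothing in the labels says that replicates came from separate mice, so the p-values reflect differences among libraries that may be technical. Members were the genes whose mean of normalized counts over the 6 LSK libraries was at least 100, which held for 10774 of the 24537 genes in the table. Values per library were not used here, so levels under each label are means derived from the pooled mean and the fold change. A gene could reach the mean of 100 through the KO or the WT libraries alone, and the counts below include such genes. All changes are log2 fold changes of KO over WT, with the standard error (SE) on the same scale.

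U2AF1 is the small subunit of the factor U2AF, which binds the AG dinucleotide at the end of an intron while the large subunit binds the pyrimidine tract before it. Together they recruit the U2 small nuclear ribonucleoprotein (snRNP), which contains the SF3 complexes, to the branch point, so that the intron can be removed. Stem cells in marrow are held largely outside the cell cycle by transcription factors such as Hlf and Mecom, and leave that state as they differentiate into red cell, platelet, granulocyte and lymphoid lines. U2AF1 is among the splicing factor genes mutated in myelodysplastic syndromes.

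The counts of the targeted gene did not check the labels. In the authors' deposited table U2af1 was at 0.61 (SE 0.06), with derived means of 2649.7 under WT and 4054 under KO; reads from exons that a deletion leaves in place count for the gene. In lineage-negative cells it stood at 0.65 in the authors' deposited table. Sort markers were present under both labels, with derived means of 28724 and 14587 for Kit, 593 and 335 for Ly6a, which encodes Sca-1, and 9371 and 4647 for Ptprc, which encodes CD45. These fell under KO, by 0.98, 0.82 and 1.01 in the authors' deposited table. Of 13 antigens that lineage depletion targets, 5 reached the mean of 100, of which 2 rose past 2-fold, 1 fell and 2 were not called. In the authors' deposited table the myeloid antigen Ly6c2 was at 2.27 (SE 0.14), higher under KO, while Itgam was at -0.78 (SE 0.10), lower under KO. The B cell antigen Ms4a1 had an SE of 1.85 in the authors' deposited table and no call.

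Transcripts tied to sex or to other tissues also differed between the labels. Derived means under WT and KO were 2949 and 4.99 for the Y-linked gene Ddx3y, 1895 and 3.33 for Eif2s3y, 1961 and 3.66 for Uty, and 2140.2 and 4.33 for Kdm5d. Xist, which coats the inactive X chromosome, stood at 347 and 62359.7 (log2 7.49, SE 0.94 in the authors' deposited table). Of 10 X-linked genes that escape inactivation 7 rose and 2 fell (median 0.77). Sex and genotype label therefore cannot be told apart in these 6 libraries. Of 47 neural genes, 19 reached the mean of 100, and 15 of them rose and 4 fell (median 2.04). The direction turned with the floor on the mean: the median was -0.55 at a floor of 500 and 4.45 with no floor. Some members reached the floor only through the KO libraries; the derived mean of the glial glutamate transporter Slc1a2 was 2.63 under WT and 923 under KO, and that of Gfap 9.56 and 358. Their summed derived means were 13246 under WT and 16291 under KO, of which the myelin gene Mbp, also transcribed in blood cells, held 4710.2 and 6129. Apob, a liver gene, went the other way with 523 and 4.66, and 9 of 17 liver genes were listed at 0. Of 27 endothelial and stromal genes 7 reached the mean of 100, of which 4 fell and 2 rose (median -1.23, and 1.30 with no floor), with summed derived means of 14715 under WT and 6004 under KO. Reads that overlap no annotated feature, 26.4% of the total, were lower under KO (log2 -0.47, SE 0.047, in the authors' deposited table). The part of these differences in the results below was not tested.

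Most genes measured in LSK cells differed between the labels, and most changes were smaller than 2-fold. In the authors' deposited table DESeq2, run by the authors, called 8322 of the 10774 genes at an adjusted p under 0.05, which is 77.2%. Of these 4402 were higher under KO (40.9%) and 3920 lower (36.4%), and the median gene stood at 0.03. A Wald test for a change beyond 2-fold, computed here from the deposited fold changes and SEs with Benjamini-Hochberg adjustment, left 418 genes higher (3.88%) and 841 lower (7.81%). The opposite test, for a change smaller than 0.5 log2 unit, held for 3496 genes (32.4%), among them 1499 that the authors' test had called and 1997 of the 2452 it had not. The other 455 uncalled genes were decided by neither. The direction also went with the mean. Among protein-coding genes at a mean of 100 to 200 the median was -0.46, with 21.2% higher and 50.1% lower. At a mean of at least 5000 it was 0.20, with 55.4% higher and 28.1% lower. The gene lists below are set beside the shares of all genes, not of genes at a like mean. By value alone, large changes were more often negative: 120 genes were lower and 82 higher by at least 3 log2 units, and 923 lower and 510 higher by 1 to 2 units, whereas between 0.5 and 1 unit 1738 were higher and 1306 lower. In bulk RNA a change in the number of cells of a type and a change in RNA per cell cannot be told apart. This holds for every fall and every rise described here.

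**Figure D1:**
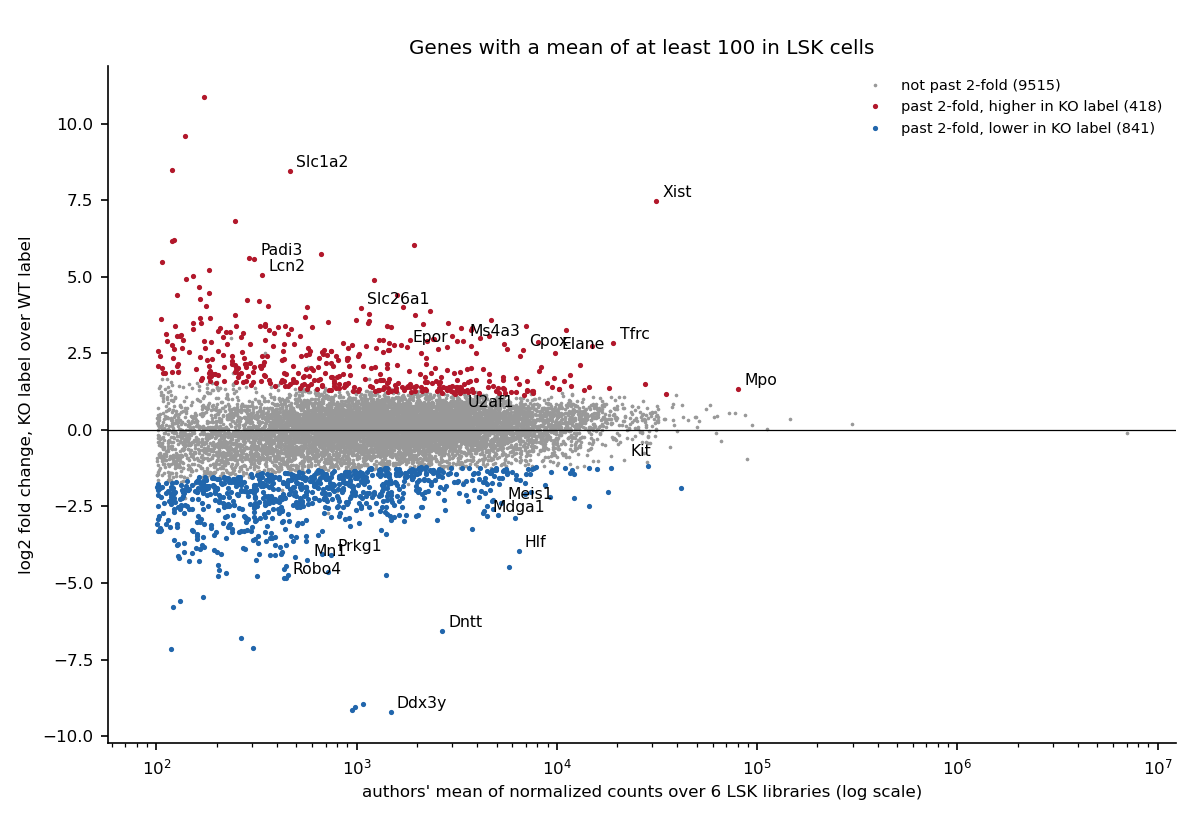
Log2 fold change of KO over WT in LSK cells (vertical axis) against the mean of normalized counts over the 6 libraries (horizontal log axis), 1 point per gene at a mean of at least 100. Coloured points passed the test for a change beyond 2-fold, 418 higher and 841 lower, and a few of the genes described in the text carry their names.

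The genes furthest past 2-fold included red cell and granulocyte genes on the higher side, beside others such as the glial transporter Slc1a2. On the lower side they included receptors and regulators of stem and vascular cells, the Y-linked genes Ddx3y and Kdm5d, and others. The transcription factor Hlf was at derived means of 12088 under WT and 783 under KO, and the cGMP-dependent kinase Prkg1, whose gene spans over 1200.5 kb, at 1412 and 83.2. The same side held the vascular receptors Tie1 (-2.81), Robo4 (-4.85) and Calcrl (-2.66), the platelet receptor Pear1 (-2.93), the glycosyltransferase Gcnt2 (-2.86), the coactivator Mn1 (-4.24), and Mdga1 (-2.82), Efcc1 (-4.75), Ifi203 (-2.32) and myoferlin, Myof (-4.05), all from the authors' deposited table. Each of these was lower by at least 4-fold on the derived means. For Prkg1, Robo4, Mn1, Efcc1 and Myof the derived mean under KO was below 100.

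On the higher side the sulfate transporter Slc26a1 went from a derived mean of 124 under WT to 1974 under KO, a 15.9-fold difference. The transferrin receptor Tfrc, with 4670.5 and 33676, had the highest mean of the 15 genes on this side. The antisense RNA Gm15915 was at 3.56 (SE 0.13), the LIM protein Crip2 at 4.01 (SE 0.17), the arginine deiminase Padi3 at 5.58 (SE 0.28) and the ubiquitin ligase Rnf128 at 4.22 (SE 0.21) in the authors' deposited table. They were joined there by Susd2 at 4.04, Erdr1 at 6.03 and the ketone body enzyme Bdh1 at 2.81 in the authors' deposited table. For Crip2, Padi3, Rnf128, Susd2 and Erdr1 the derived mean under WT was below 100. Erdr1 and Rnf128 are annotated on the X chromosome, and sex goes with the label here. In the authors' deposited table for lineage-negative cells Erdr1 was at 1.35 (SE 0.97), not called, and Rnf128 at 3.68 (SE 0.25), called higher. Reads counted for the antisense gene Gm15915 may belong to its partner, since the sources used here do not say whether counting used strand.

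**Figure D2:**
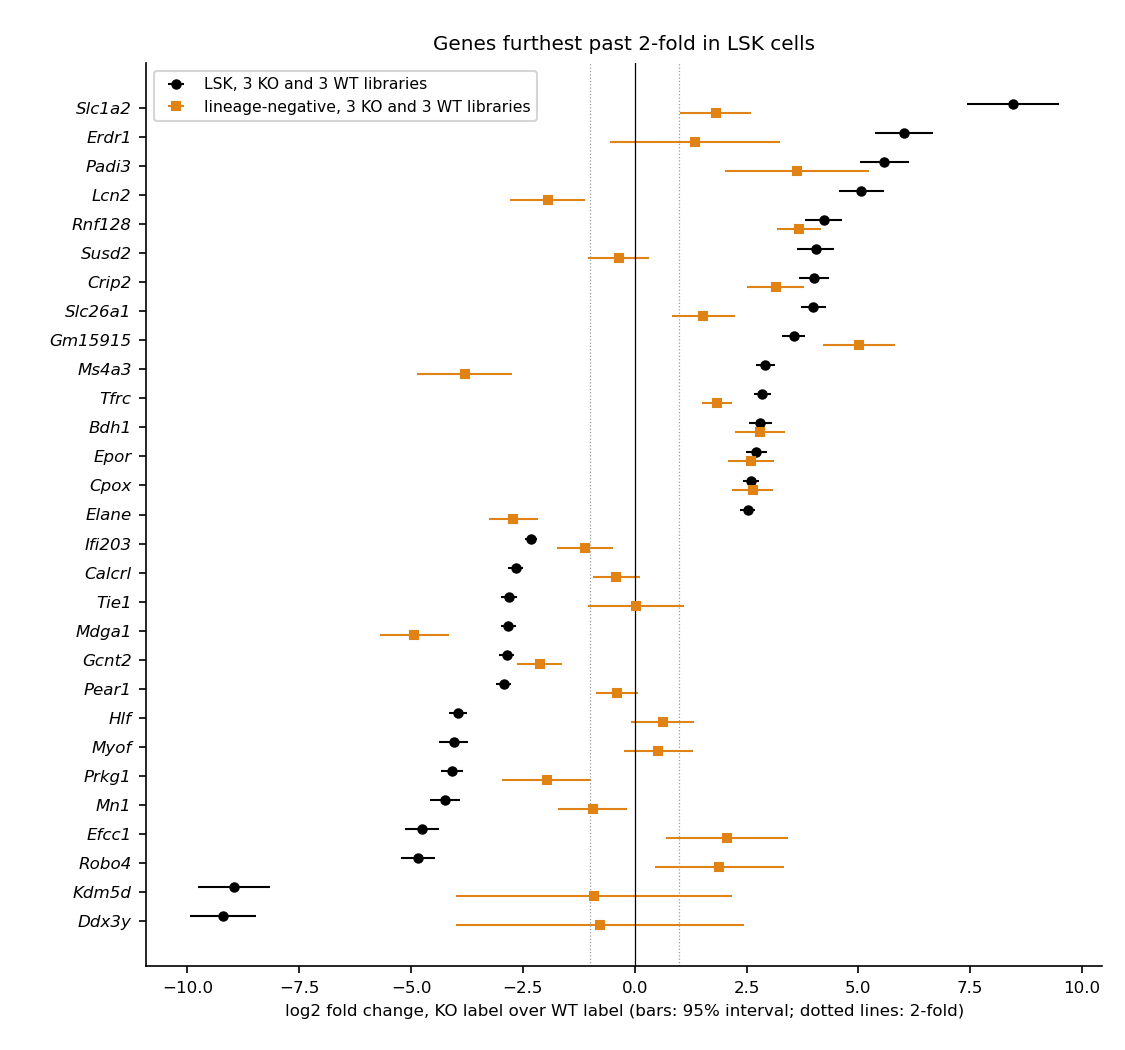
Log2 fold change of KO over WT for genes furthest past 2-fold on each side in LSK cells (black points) and the same genes in lineage-negative cells (orange squares), with 95% intervals from the deposited standard errors and dotted lines at 2-fold. Lcn2, Ms4a3, Elane, Robo4 and Efcc1 lie on opposite sides of 0 in LSK and lineage-negative cells, and Cpox, Epor and Bdh1 on nearly the same value. The lineage-negative means of Robo4 and Efcc1, 68.0 and 39.4, are below 100.

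Transcription factors of stem cells were lower under KO. Of 35 measured factors 28 fell, 13 of them past 2-fold, and 5 rose (median -1.12, or -0.74 at a floor of 500, against 0.03 for all genes and 36.4% of them lower). Beside Hlf, the authors' deposited table gave Klf12 -3.77 (SE 0.28), the homeobox factor Nkx2-3 -3.57 (SE 0.19) and Mycn -3.28 (SE 0.30). The derived mean of Mycn went from 2396 to 246. The regulators of self-renewal Mecom (-2.66), Meis1 (-2.40), Prdm16 (-2.17) and Erg (-2.01) were lower by more than 2-fold in the authors' deposited table. Factors that progenitors share with stem cells moved less, with Runx1 at -0.74, Gata2 at -0.69, Lmo2 at -0.63 and Lyl1 at -0.66 in the authors' deposited table. The Polycomb gene Bmi1 was within 0.5 log2 unit (-0.11, SE 0.08 in the authors' deposited table). The rises were in Gfi1, Tal1, Gfi1b (1.36), Hoxb2 (1.38) and Nfia (1.98), values again from the authors' deposited table; Gfi1b acts in red cell and platelet differentiation.

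Hox genes did not move as a block. The authors' deposited table gave Hoxa5 -1.47, Hoxa10 -1.40, Hoxa7 -0.92 and Hoxa9 -0.86, all lower. In the Hoxb cluster Hoxb3 (-1.15) and Hoxb4 (-0.53) fell in the authors' deposited table, while Hoxb2, the neighbour of Hoxb3, rose.

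Surface receptors and adhesion molecules of stem cells had the lowest median of the 57 lists that describe blood cell or general cell functions. Of 32 measured, 27 fell, 20 past 2-fold, and 3 rose (median -1.77). Derived means of the cytokine receptor Flt3 were 11046 and 492, those of the endothelial and stem cell sialomucin Emcn 391 and 14.3. Also past 2-fold lower in the authors' deposited table were Fgd5 (-4.26), the adhesion molecule Esam (-3.64), the protein C receptor Procr (-3.33), Cd34 (-2.03), Cd27 (-2.01) and the angiopoietin receptor Tek (-1.86). Slamf1, which encodes CD150, had no call at -0.18 (SE 0.14), and the TGF-beta co-receptor Eng lay within 0.5 log2 unit at -0.04 (SE 0.07), both in the authors' deposited table. Thy1 (0.55), Cd81 (0.54) and Ifitm1 (0.29) were the 3 that rose in the authors' deposited table.

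Genes of quiescence fell in 19 of 23 cases and rose in 1 (median -0.68). Past 2-fold in the authors' deposited table were Sesn3 (-2.26), Trp53inp1 (-2.04), the antiproliferative Btg2 (-1.82), the atypical cyclin Ccng2 (-1.75), Tsc22d1, Txnip, Sesn1 and Tsc22d3, several of them targets of FOXO factors. Foxo1 and Foxo3 themselves were at -0.84 (SE 0.12) and -0.64 (SE 0.05) in the authors' deposited table. Among CDK inhibitors Cdkn1b (-0.63), Cdkn2c (-0.31) and Cdkn2d (-0.67) fell in the authors' deposited table, whereas Cdkn1a was at -0.09 (SE 0.15) there, within 0.5 log2 unit and not called. The rise was Rb1 (0.93, SE 0.07 in the authors' deposited table), which encodes the retinoblastoma protein.

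Signalling genes that act on stem cells were lower in many cases. Of 40 TGF-beta, BMP, Wnt and Notch genes 29 fell and 8 rose (median -0.67). The receptors Acvr2b (-2.34), Acvr2a (-1.86), Bmpr2 (-1.66) and Tgfbr2 (-1.50) fell together with the mediators Smad1 (-1.23), Smad3 (-1.23), Smad4 (-1.16) and Smad5 (-1.25) in the authors' deposited table. Id1, a target of BMP signalling, rose from a derived mean of 26.6 to 199, and Ltbp1, which binds latent TGF-beta, from 83.6 to 349.7. Notch1 was at -2.05, Tcf7l2 at -2.59, and Ctnnb1, which encodes beta-catenin, at -0.03 (SE 0.05) in the authors' deposited table. Of 40 cytokine receptor and JAK-STAT genes 23 fell and 5 rose (median -0.57): Il1r1 (-2.47), Il18r1 (-2.36) and Stat4 (-1.99) fell, and Epor (2.72) and Ifngr1 (1.23) rose in the authors' deposited table.

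Among 54 PI3K-mTOR and RAS-MAPK genes 28 fell (51.9%) and 12 rose (22.2%), against 36.4% and 40.9% of all genes. Their median was -0.20, or -0.12 at a floor of 500, and 25 lay within 0.5 log2 unit. The ERK phosphatases, which are induced by the pathway they inhibit, fell past 2-fold for Dusp5 (-2.31), Dusp4 (-2.10) and Dusp2 (-1.69) in the authors' deposited table. The kinases Braf (-0.06) and Akt1 (-0.03) and the exchange factor Sos1 (0.02) were near 0 in the same authors' deposited table. NF-kB, inflammatory and immediate early genes fell in 17 of 27 cases and rose in 2 (median -0.76, or -0.46 at a floor of 500 and -0.48 with no floor), with Nfkbiz (-1.61), Fosl2 (-1.57), Rel (-1.52) and Nfkbie (-1.43) past 2-fold lower in the authors' deposited table. Rela was at -0.08 (SE 0.05) in the authors' deposited table, within 0.5 log2 unit. The spread was wide for immediate early genes, which react to handling: Fos had an SE of 1.13 and Jun one of 0.95 in the authors' deposited table.

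Lymphoid and platelet genes were lower under KO as well. Of 25 lymphoid priming and B cell genes 18 fell, 11 past 2-fold, and 3 rose (median -1.005). The terminal transferase Dntt went from a derived mean of 5313 to 56.3, a 94.3-fold difference, and the chromatin organizer Satb1 from 6819 to 729. Genes of committed B cells had no call, with SEs of 1.41 for Cd79a and 0.98 for Ikzf3 in the authors' deposited table. Ikzf1 and Tcf3, the E2A gene, rose to 0.41 (SE 0.05) and 0.69 (SE 0.06) in the authors' deposited table. Of 33 T, NK and innate lymphoid genes 10 reached the mean of 100, and their direction depended on that floor, with a median of -1.32 and of 0.20 with no floor. Among the 10, 6 fell and 1 rose, led by the GTPases Gimap8 (-2.98) and Gimap6 (-2.94) and by Rora (-2.43) in the authors' deposited table. Of 25 megakaryocyte and platelet genes 19 fell, 12 past 2-fold, and 4 rose (median -1.39). Trpc6 was at derived means of 840.4 and 29.3, the platelet granule protein Mmrn1 at 1376 and 55.8, and the chemokine Pf4 at 388 and 54. Gp5 and Gp1ba, components of the von Willebrand factor receptor, had no call (-0.26, SE 0.16 and 0.20, SE 0.21 in the authors' deposited table).

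Genes of the red cell membrane and of heme and iron had the highest medians of the same 57 lists. All 19 measured red cell membrane genes rose, 15 past 2-fold (median 2.79), as did 24 of 27 heme and iron genes, 14 past 2-fold (median 1.34), while the other 3 of these, Ireb2, Slc25a37 and Hmox1, had no call. The anion exchanger Slc4a1 went from a derived mean of 199 to 3201, with an SE of 0.96 in the authors' deposited table. Tighter values were those of the Rhesus glycoprotein Rhag (465 and 5260.0), the skeleton protein Ank1 (1233 and 12839.9) and the heme enzyme Cpox (1923 and 11676), all derived means under WT and KO. Along heme synthesis the authors' deposited table gave Alas1 1.34, Alas2 3.68, Alad 1.36, Uros 1.45, Urod 1.16, Cpox 2.60, Ppox 0.40 and Fech 1.85, all of them called higher. Alas2 is the red cell form of the first enzyme and had an SE of 0.90 in the authors' deposited table. The globin genes Hba-a1 and Hba-a2 had means of 0.16 and 0.17, and Hbb-bs and Hbb-bt were listed at 0; they have near-identical copies, so these values are uncertain.

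Erythroid transcription factors and receptors were divided. Of 24 measured, 15 rose (62.5%), 7 past 2-fold, and 7 fell (29.2%), against 40.9% and 36.4% of all genes. Their median was 0.39, or 0.25 at a floor of 500. Klf1 (2.90, SE 0.26), Gata1 (1.89, SE 0.11), Epor and the erythroid hormone gene Erfe (3.15, SE 0.29) rose in the authors' deposited table. Sox6 (-1.28), Nfe2 (-0.78), Cbfa2t3 (-0.67) and Lmo2 fell in the authors' deposited table, and Myb, at -0.04 (SE 0.06) there, and Stat5a, at 0.07 (SE 0.05), were within 0.5 log2 unit.

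GATA factors bind the letters AGATAA, read on either strand, and these were looked for in the 250 bases before the start of each gene (RefSeq promoters, build GRCm38.p6). They were present in 9 of the 50 matched promoters of the erythroid, heme and red cell lists (18%) and in 5 of 17 of the mast cell, basophil and eosinophil list (29.4%), against 5.63% of the 8436 promoters of measured genes and 10.25% of all 27025 promoters. Genes with the letters had medians of 2.72 and 1.32, against 1.35 and 1.11 for all matched genes of these lists. Of the 5 in the mast cell list 3 were called. An erythroid and a mast cell example, the iron reductase Steap3 (chr1:120271085-120271160, minus strand, log2 1.99 in the authors' deposited table) and the IgE receptor chain Ms4a2 (chr19:11623720-11623765, minus strand, log2 1.37), are shown 5′ to 3′ on the gene's strand, with the letters found, or their reverse complement TTATCT, in capitals:
Steap3: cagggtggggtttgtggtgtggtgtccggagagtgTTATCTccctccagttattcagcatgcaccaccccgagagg
Ms4a2: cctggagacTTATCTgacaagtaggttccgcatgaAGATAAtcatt
The match nearest to the start ends 39 bases before it in Steap3 and 5 bases before it in Ms4a2, whose window holds a further match. A match describes the letters in this window and no binding was measured.

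Granule genes of early neutrophils and genes of mast cells and eosinophils rose. Of 24 primary granule and early neutrophil genes 18 rose, 10 past 2-fold, and 2 fell (median 0.96). Elane, which encodes neutrophil elastase, went from a derived mean of 2914 to 16755, Ms4a3 from 792 to 6003 and haptoglobin, Hp, from 298 to 1523. The granule proteins Mpo (1.33, SE 0.08), Prtn3 (1.44, SE 0.09) and Ctsg (1.60, SE 0.09) rose less in the authors' deposited table, and the factor Cebpe, which drives later granules, was at 2.03 (SE 0.17) there. Cebpa was at 0.30 (SE 0.09) and Gfi1 at 0.32 (SE 0.11) in the authors' deposited table. Of 27 secondary and tertiary granule genes 12 reached the mean of 100, of which 4 rose (33.3%) and 5 fell (41.7%). These shares were near the 40.9% and 36.4% of all genes. Their median depended on that floor, at 0.0095 with it, -0.78 at a floor of 500 and 2.60 with no floor. Lcn2 rose from a derived mean of 19.6 to 657 and Lyz2 fell from 2927 to 1087. Late neutrophil transcripts stayed below the mean of 100, at 70.6 for S100a8, 60.7 for S100a9, 75.4 for Ltf and 9.58 for Camp in the authors' deposited table. Their changes there were 4.19 (SE 0.49), 3.66 (SE 0.54), 2.75 (SE 1.02) and 2.84 (SE 0.96), all called higher in the authors' deposited table.

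The factor PU.1 binds letters such as GAGGAAGT in granule gene promoters. Read on either strand, they were present in 4 of 19 matched promoters of the primary granule list (21.1%), against 2.55% of the promoters of measured genes and 2.44% of all promoters. These 4 genes had a median of 1.39, against 0.75 for the 19. Mpo (chr11:87793534-87793602, plus strand) and Prtn3 (chr10:79879537-79879614, plus strand) are shown because both granule genes rose and both hold the letters, in capitals:
Mpo: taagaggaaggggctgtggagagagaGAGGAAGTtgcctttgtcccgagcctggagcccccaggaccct
Prtn3: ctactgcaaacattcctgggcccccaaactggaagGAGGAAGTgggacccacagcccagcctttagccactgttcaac

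Of 21 mast cell, basophil and eosinophil genes 15 rose, 8 past 2-fold, and 3 fell (median 1.26). The eosinophil granule proteins Epx and Prg2 went from derived means of 24.4 and 79.7 to 1303 and 2362, with SEs of 1.22 and 0.88 in the authors' deposited table. Both reached the floor on the mean only through the KO libraries, as did Lcn2, Id1, Pmaip1, Ltbp1, Padi3, Rnf128, Susd2, Erdr1 and Crip2. Among the falls, Emcn, Trpc6, Dntt, Mmrn1, Pf4, Prkg1, Robo4, Efcc1, Mn1 and Myof reached it only through the WT libraries. Other named genes may have done so too. Hdc, which makes histamine (1.63, SE 0.09), and the IL-33 receptor Il1rl1 (2.16, SE 0.22) were measured more tightly in the authors' deposited table. Cpa3, a marker of mast cell progenitors, had no call (0.08, SE 0.34 in the authors' deposited table), and Kit and Gata2, which the list shares with stem cells, fell. Monocyte, macrophage and dendritic genes did not move one way: 8 of 23 rose (34.8%) and 6 fell (26.1%), against 40.9% and 36.4% of all genes (median 0.02). Fcgr3 (2.57) and the dendritic factor Zbtb46 (3.14) rose and Irf8 (-1.49) and Tlr7 (-2.94) fell in the authors' deposited table, while Csf1r was not called at -0.63 (SE 0.35).

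Genes of protein synthesis were higher almost without exception, with medians from 0.47 to 0.82. Of all measured genes 40.9% were higher, and of protein-coding genes with transcripts up to 1 kb 76.0% (median 0.58). The part of transcript length in the rises below was not tested. All 43 translation factors and all 22 cytosolic aminoacyl-tRNA synthetase genes rose (medians 0.58 and 0.82), as did 54 of 57 cytosolic ribosomal protein genes (0.47) and 44 of 47 genes of ribosome biogenesis (0.72), with no fall in any of these lists. Ribosomal proteins ran from 0.09 (SE 0.07) for Rps4x, not called, to 1.06 (SE 0.09) for Rps12 in the authors' deposited table. Past 2-fold were the nucleolar proteins Npm1 (1.16) and Nhp2 (1.23), the synthetases Hars (1.49) and Gars (1.14) and the initiation factor Eif2s3x (1.34), an X-linked gene that escapes inactivation, all in the authors' deposited table. The MYC network and polyamine list was divided, with 10 of 18 higher (55.6%) and 6 lower (33.3%). The shares of all genes were 40.9% and 36.4%, and the median of the list was 0.21. Myc was at 0.28 (SE 0.08) in the authors' deposited table, within 0.5 log2 unit, while its target Odc1, which starts polyamine synthesis, rose to 1.41 (SE 0.05) and the antagonist Mxd4 fell to -1.80 (SE 0.12) there. The letters CACGTG, which MYC binds, were in 2 of 38 matched promoters of the ribosome biogenesis list (5.26%), in 8.84% of the promoters of measured genes and in 6.05% of all promoters. The 2 genes had a median of 0.74, against 0.67 for the 38. The integrated stress and unfolded protein response list rose in 26 of 33 cases and fell in 5 (median 0.66). Asparagine synthetase, Asns, went from a derived mean of 685 to 6852, a 10-fold difference, and Mthfd2 from 649.8 to 2001. Atf4, which controls both, was at 0.67 (SE 0.05), and Phgdh, of serine synthesis, at 0.04 (SE 0.05), within 0.5 log2 unit, in the authors' deposited table.

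Protein folding and breakdown followed the same direction. Of 29 chaperones 25 rose (median 0.69), with the mitochondrial pair Hspd1 (1.37) and Hspe1 (1.58) past 2-fold and the stress-induced Dnajb1 at -0.01 (SE 0.07) in the authors' deposited table. Of 37 proteasome genes 35 rose (median 0.81). The 2 not called were the immunoproteasome subunits Psmb8 and Psmb9, at -0.07 (SE 0.07) and 0.08 (SE 0.08) in the authors' deposited table, and the third, Psmb10, was at 0.29 (SE 0.08) there.

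Mitochondrial genes of the nuclear genome rose in nearly every case. These were 36 of 36 subunits of respiratory complex I (median 0.73), 40 of 41 of complexes II to V (0.86), 56 of 58 mitochondrial ribosomal proteins (0.74) and 32 of 36 import and dynamics genes (0.59), again with no fall. The first 3 of these lists had median spans of 8.5, 7.0 and 8.0 kb. Of all protein-coding genes spanning 5 to 10 kb 49.5% were higher (median 0.20). The ATP synthase genes Atp5k (1.83, SE 0.22) and Atp5g1 (1.30, SE 0.06), cytochrome c, Cycs (1.29, SE 0.08), and Ndufa5 (1.60, SE 0.20) rose past 2-fold in the authors' deposited table. Cox7a2l was the respiratory gene without a call (-0.14, SE 0.08 in the authors' deposited table). Of 24 genes of the TCA cycle 20 rose, such as malate dehydrogenase, Mdh2, at 1.02 (SE 0.05) in the authors' deposited table, and 2 fell, Idh2 (-0.38) and Glud1 (-0.34 in the authors' deposited table). The regulator Nrf1 was at 0.23 (SE 0.06) and Tfam, the factor of mitochondrial DNA, at 0.36 (SE 0.07) in the authors' deposited table. Letters bound by NRF1, GCGCATGC on either strand, were in 9 of 64 matched promoters of respiratory genes (14.1%), 4.98% of the promoters of measured genes and 2.32% of all promoters. The median change was 0.67 for the 64 narrowed to those 9 and 0.80 for all 64. One is Sdhb, a subunit of complex II (chr4:140961182-140961259, plus strand, log2 0.65 in the authors' deposited table), shown with the reverse complement in capitals:
Sdhb: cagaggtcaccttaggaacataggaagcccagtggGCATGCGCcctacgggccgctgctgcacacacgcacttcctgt

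Metabolic genes outside the mitochondria were mixed in places. Glycolysis and pentose phosphate genes rose in 21 of 30 cases and fell in 6 (median 0.50). The lactate carriers Slc16a1 (1.61) and Slc16a3 (1.51) and the pentose enzyme Rpia (1.30) rose past 2-fold, and the glucose carriers Slc2a1 (-0.99) and Slc2a3 (-0.32) fell, in the authors' deposited table. Ldha was at 0.80 (SE 0.04) and Ldhb, the other subunit of lactate dehydrogenase, at -1.15 (SE 0.15) in the authors' deposited table. Purine, pyrimidine and folate enzymes rose in 27 of 36 cases and fell in 5 (median 0.47), with Mthfd1 going from a derived mean of 5209 to 18162. Cholesterol and fatty acid genes had 20 of 38 higher (52.6%) and 6 lower (15.8%), against 40.9% and 36.4% of all genes (median 0.20). The sterol exporters Abcg1 (-2.07) and Abca1 (-1.36) were the lowest of them in the authors' deposited table. Redox enzymes rose in 20 of 25 cases (median 0.74), for instance Nqo1 (1.62) and the glutathione genes Gsr (1.40) and Gclm (1.22) in the authors' deposited table.

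Genes of the cell cycle were higher in the majority. Of 19 genes of the G1 phase 10 rose (52.6%) and 5 fell (26.3%), against 40.9% and 36.4% of all genes (median 0.25). DNA replication genes rose in 39 of 47 cases and fell in 1 (median 0.50), and mitosis genes in 39 of 49 with 4 falls (0.35). Replication-dependent histones, near-identical copies whose single values are uncertain, had 56 of 57 higher (0.53). At the entry to S phase, cyclin E1, Ccne1, went from a derived mean of 396 to 2314, whereas Ccnd2 (-0.56) and Cdk6 (-0.37) fell and Ccnd3 was at 0.03 (SE 0.06) in the authors' deposited table. The licensing factors Cdc6 (1.23, SE 0.06) and Orc1 (1.18, SE 0.09) led the replication list in the authors' deposited table, while Mcm5 (0.06, SE 0.07) and Cdc7 (-0.03, SE 0.08) were within 0.5 log2 unit. In mitosis the factor Mybl2 (1.17) and the kinase Plk1 (0.98) were highest, and Mki67 was at 0.32 (SE 0.06) in the authors' deposited table. E2F letters, TTTCCCGC on either strand, were in 5 of 39 matched promoters of the replication list (12.8%), 1.96% of the promoters of measured genes and 0.929% of all promoters; that of Cdc6 (chr11:98907978-98908055, plus strand) is shown with the reverse complement in capitals:
Cdc6: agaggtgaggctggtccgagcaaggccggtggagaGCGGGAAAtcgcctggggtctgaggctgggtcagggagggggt

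Of 28 p53 targets 13 rose (46.4%) and 9 fell (32.1%), shares near the 40.9% and 36.4% of all genes (median 0.19). Pmaip1, which encodes the death-promoting protein NOXA, went from a derived mean of 57.5 to 474, and Zmat3 (1.78), Gadd45a (1.45), Bax (0.99) and Ccng1 (0.78) rose in the authors' deposited table. The equally well known targets Mdm2 (-0.18, SE 0.07) and Cdkn1a lay within 0.5 log2 unit in the authors' deposited table, and Bbc3, the PUMA gene, fell to -0.54 (SE 0.13) there. Of 31 BCL2 family and caspase genes 17 fell and 9 rose (median -0.20). The guardian Bcl2 fell from a derived mean of 7694 to 2586, Mcl1 was at -0.17 (SE 0.05) in the authors' deposited table, and the effectors Bax and Bak1 rose. Casp12 (-2.31), Casp1 (-0.93) and Casp8 (-0.69) fell in the authors' deposited table. Fanconi, recombination and checkpoint genes rose in 24 of 38 cases (63.2%) and fell in 5 (13.2%), with a median of 0.25. End joining, mismatch and excision repair genes rose in 14 of 36 cases (38.9%), near the 40.9% of all genes, and fell in 6 (16.7%, median 0.12). Atm was at -0.29, Atr at 0.25, Chek1 at 0.19 and the repair factor Xpc at -1.11 in the authors' deposited table. Enzymes that resolve RNA-DNA hybrids rose in 15 of 20 cases and fell in 2 (median 0.37).

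Splicing genes, the machinery that U2AF1 belongs to, were mostly higher, with list medians from 0.01 to 0.56. Single values ran from -0.72 to 1.25 among U1, Sm and Lsm genes and from -0.17 to 1.23 among genes of the 3′ splice site. All 26 genes of the tri-snRNP and the Prp19-associated complex rose (median 0.51), 16 of 24 U1, Sm and Lsm genes rose and 2 fell (0.56), and of 23 genes that act at the 3′ splice site 16 rose and none fell (0.34); no gene of these lists passed the 2-fold test. The partner U2af2 was at 0.41 (SE 0.05), the branch point protein Sf1 at 0.27 (SE 0.07) and Sf3b1 at 0.11 (SE 0.04) in the authors' deposited table. U2af1l4, a relative of U2af1, was at 0.14 (SE 0.11) and the minor-intron counterpart Zrsr2 at -0.17 (SE 0.11), neither of them called, in the authors' deposited table. The U12-type spliceosome did not follow, with 2 of 11 genes higher (18.2%) and 3 lower (27.3%), against 40.9% and 36.4% of all genes (median 0.01). Among 40 SR proteins, hnRNPs and splicing kinases 25 rose and 9 fell (median 0.30). Rbfox2 fell from a derived mean of 482 to 120.1 and Srpk2, an SR protein kinase, from 3256 to 1203. Hnrnpm (0.66) and Srsf2 (0.63) were the highest of that list in the authors' deposited table. RNA steps after splicing rose too: 20 of 22 export and exosome genes (median 0.59, with the helicase Ddx39 past 2-fold at 1.43, SE 0.06 in the authors' deposited table), 13 of 19 junction complex and nonsense-mediated decay genes with 2 falls (0.29), and 12 of 19 cleavage and polyadenylation genes with 2 falls (0.21).

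Of 57 Polycomb, Trithorax and SWI/SNF genes 24 fell (42.1%) and 17 rose (29.8%), against 36.4% and 40.9% of all genes (median -0.11), and 32 lay within 0.5 log2 unit. Cbx2 (-1.56) and Smarca2 (-1.29) fell past 2-fold, Kmt2a was at -0.81, and Asxl1 (-0.05) and Arid2 (0.01) were near 0 in the authors' deposited table. Enzymes of DNA methylation and histone acetylation fell in 17 of 31 cases and rose in 9 (median -0.16), with Hdac9 (-2.97), Tet1 (-1.72) and Dnmt3a (-1.41) past 2-fold lower and Tet2 at -0.23 (SE 0.08) in the authors' deposited table. Of 37 genes that are mutated in myelodysplasia 15 rose (40.5%), 13 fell (35.1%) and 20 lay within 0.5 log2 unit (median -0.02), the shares of all genes being 40.9% and 36.4%. Interferon-stimulated genes rose in 16 and fell in 16 of 47 cases (34.0% each, median 0.03), also near the shares of all genes: Isg20 (2.10) and Iigp1 (2.03) rose and Ifi44 (-1.70) fell past 2-fold in the authors' deposited table. Lysosome and autophagy genes had 23 of 50 higher (46%) and 12 lower (24%), with a median of 0.13. The kinase Ulk2 fell to -1.16 (SE 0.06) and Ctsz, a cathepsin, rose to 1.17 (SE 0.06) in the authors' deposited table. Of 7 measured imprinted genes 4 fell and 2 rose, with Sgce lowest at -3.09 (SE 0.27) and Grb10 at 1.30 (SE 0.09) in the authors' deposited table.

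**Figure D3:**
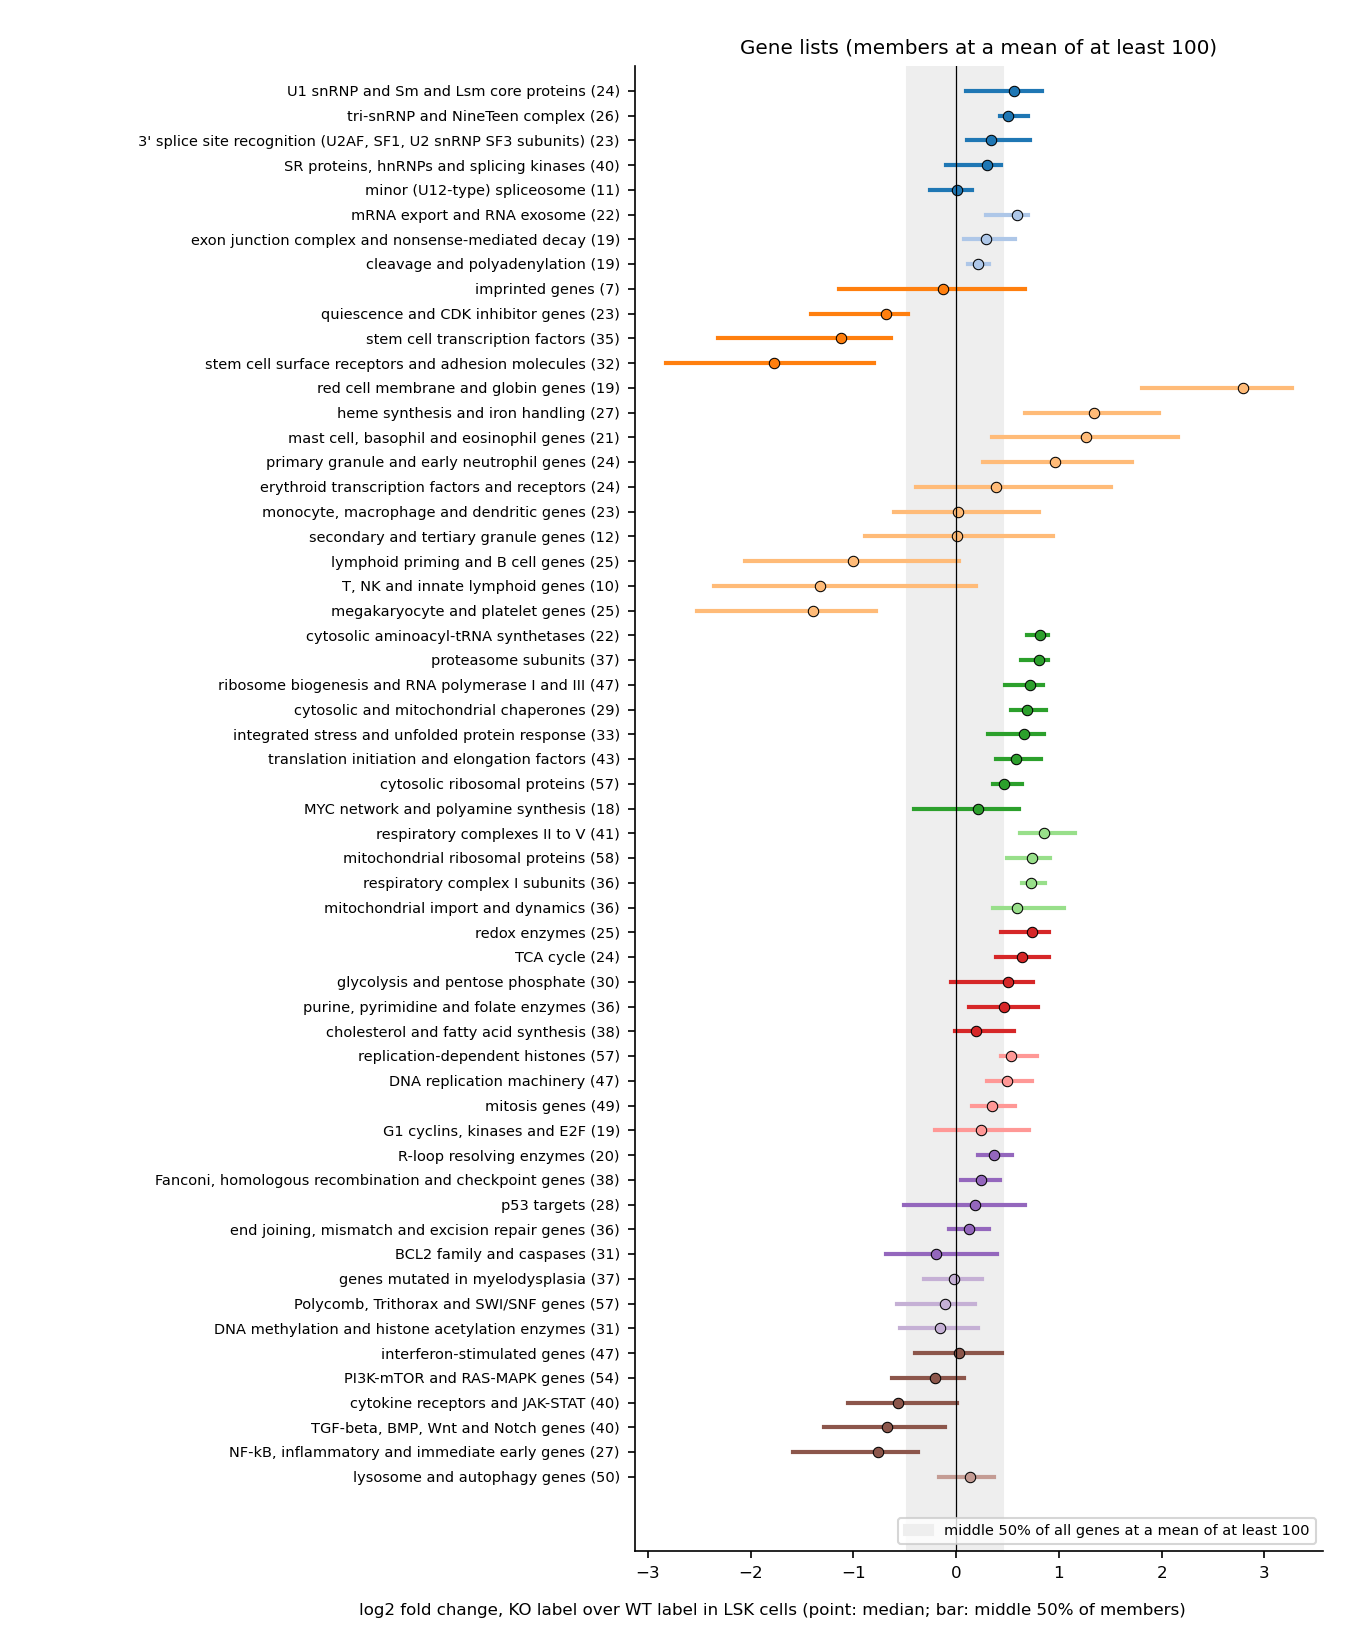
Median (point) and middle 50% (bar) of the log2 fold change of KO over WT in LSK cells for 57 gene lists, with the number of measured members in brackets; colours mark related lists and the grey band is the middle 50% of all 10774 genes. Red cell membrane genes lie highest at 2.79 and stem cell receptors lowest at -1.77.

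Across the whole set, 23 of 57 lists had at least 75% of their members higher and 4 had at least 75% lower. Those 4 were both stem cell lists, the quiescence list and the megakaryocyte list.

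The size of the change also went with the architecture of the gene. Among 10462 protein-coding genes, in classes set after the values had been seen, the median change was 0.33 for genes that span up to 5 kb and declined over the classes to -0.59 for 408 genes spanning more than 200 kb. Of these longest genes 65.2% were lower and 18.1% higher. They include Prkg1, Klf12, Hdac9 (-2.97) and Tox (-3.99 in the authors' deposited table). Transcript length gave the same order, from a median of 0.58 up to 1 kb to -0.22 above 6 kb. The number of introns, the feature that a splicing factor acts on, gave a narrower range of medians: 0.24 without an intron, -0.05 with 1, and then a decline from 0.11 with 2 or 3 over 0.10 with 4 to 6, 0.06 with 7 to 10 and 0.02 with 11 to 20 to -0.07 with at least 21. Without the histone genes the median of genes with no intron was -0.14. The decline with introns did not hold at every span. Among genes spanning 20 to 50 kb medians rose, at -0.12 with 0 to 3 introns, -0.0093 with 4 to 10 and 0.13 with at least 11. Among those spanning 100 to 200 kb they fell, at -0.07, -0.21 and -0.25. Spearman's rho with the change, over genes, which are not independent replicates, was -0.216 for span, -0.261 for transcript length, -0.0783 for introns and -0.000885 for the GC content of the transcript. Many listed genes of protein synthesis and respiration are short, and without all listed genes the median of genes up to 5 kb was 0.21. In transcripts of 3 to 6 kb alone that class stood at -0.16. The part of RNA length or quality in this was not tested, since no value per library was used here.

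**Figure D4:**
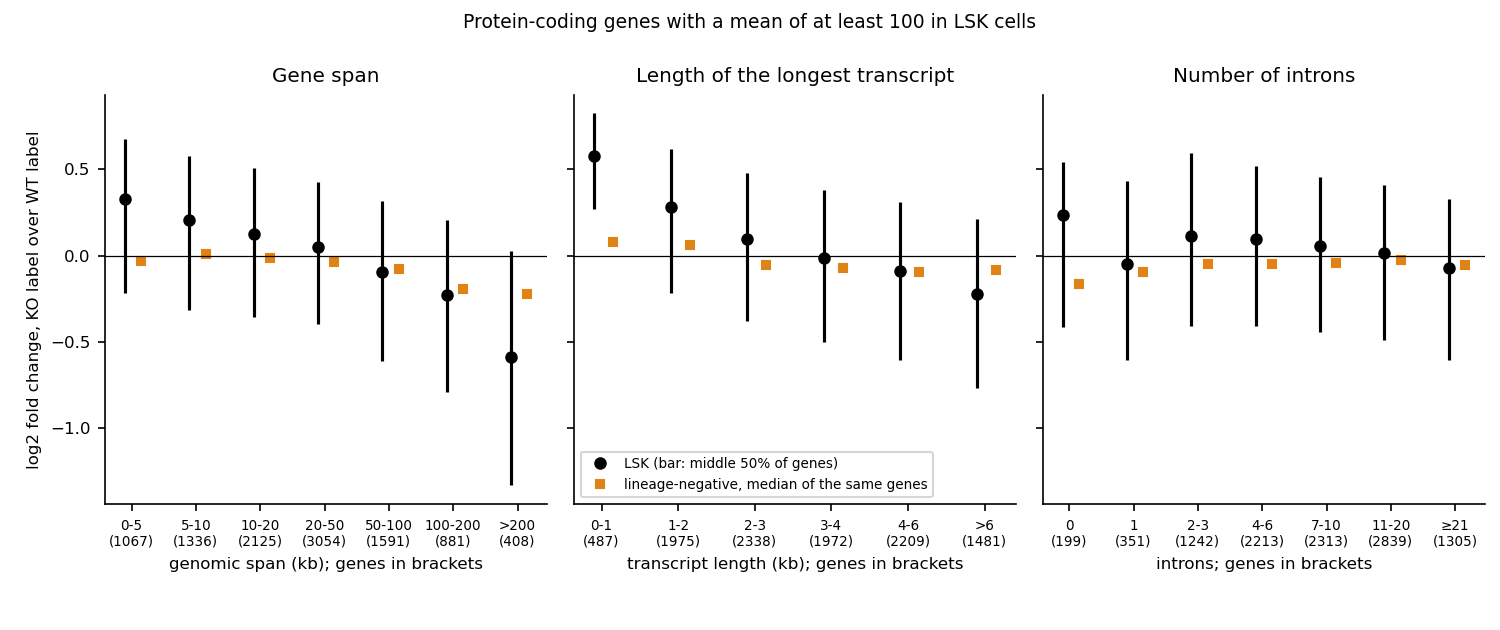
Median log2 fold change of KO over WT by genomic span, transcript length and number of introns for protein-coding genes at a mean of at least 100 (black points; bars, middle 50% of genes) and for the same genes in lineage-negative cells (orange squares), with gene numbers in brackets. The LSK median falls from 0.33 to -0.59 over the span classes and stays between 0.24 and -0.07 over the intron classes.

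The effect in LSK cells differed from that in lineage-negative cells for many genes. The difference of both log2 fold changes over its SE was tested for 10425 genes that reached the mean of 100 in each table (two-sided normal test, Benjamini-Hochberg adjustment). It passed for 3854 (37%), of which 2338 were more positive (22.4% of the genes tested) and 1516 more negative (14.5%) in LSK cells. The SE of the median gene was 0.0874 in LSK cells and 0.208 in lineage-negative cells, so the latter set most of the error of a difference. The comparisons also differ in the abbreviation BMT, carried by LSK alone, and in the values of sex-linked genes given below. Cell population cannot be told apart from these in any difference described here. There were 736 genes called in opposite directions, 474 higher in LSK and lower in lineage-negative cells and 262 the reverse. Granule and monocyte lists held the contrast: primary granule genes had medians of 0.96 in LSK and -2.04 in lineage-negative cells, with 22 of 24 more positive in LSK. Ms4a3 was at 2.92 in LSK and -3.80 in lineage-negative cells, Elane at 2.52 and -2.71, and Fcgr3 at 2.57 and -2.70, from the authors' deposited tables (adjusted p of the difference 2.44e-31, 6.1e-69 and 3.35e-85). For 19 of 23 monocyte and dendritic genes and 16 of 21 mast cell, basophil and eosinophil genes the effect was likewise more positive in LSK, and for 4 of the latter it was more negative.

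Of the stem cell genes 15 of 35 factors were more negative in LSK cells and 4 more positive, and 17 of 32 receptors were more negative and 6 more positive, against 14.5% and 22.4% of all genes. Both Hlf and Klf12 fell in LSK. In the authors' deposited table for lineage-negative cells Hlf was at 0.63 (SE 0.36), not called, and Klf12 at 1.68 (SE 0.42), called higher. Ly6a, at -0.82 in LSK, was at 2.20 there, and Kit at -0.98 and 0.36 (the authors' deposited tables). The test passed for 5 of 19 red cell membrane genes, 2 of them more positive in LSK, and for 6 of 27 heme and iron genes, 5 of them more positive. Cpox was at 2.60 and 2.63, Epor at 2.72 and 2.61 and Klf1 at 2.90 and 2.98 in the authors' deposited tables for LSK and lineage-negative cells. Respiratory genes were more positive in LSK for 16 of 36 complex I and 20 of 41 complex II to V members, histones for 41 of 57 and mitosis genes for 23 of 49, while ribosome biogenesis genes were more negative in LSK for 19 of 47 and more positive for 2. Of the genes tied to sex, Ddx3y was at -0.79 (SE 1.64) and Xist at 10.02 (SE 1.81) in the authors' deposited table for lineage-negative cells, against -9.21 and 7.49 in that for LSK.

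**Figure D5:**
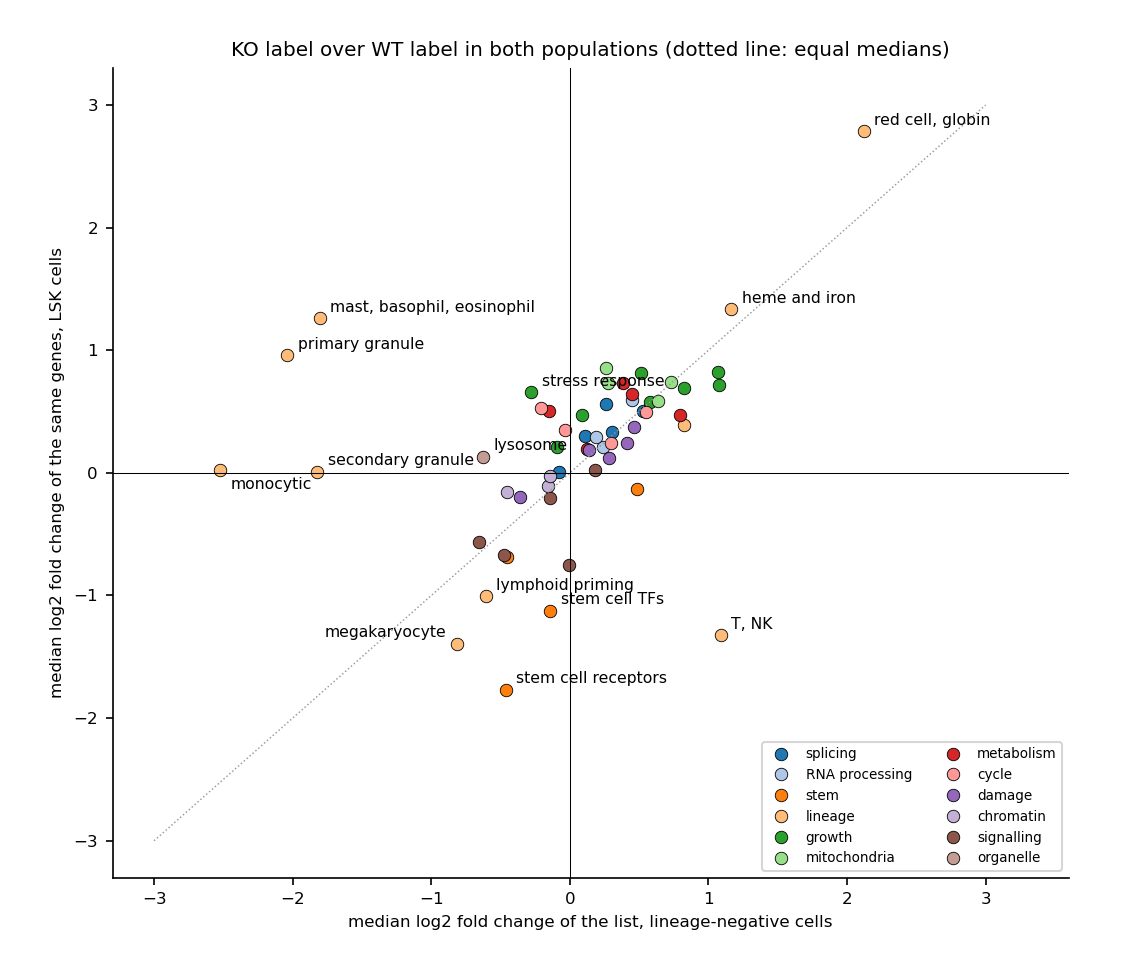
Median log2 fold change of KO over WT of each gene list in lineage-negative cells (horizontal) and of the same genes in LSK cells (vertical), 1 point per list, coloured by group of lists, with a dotted line where both are equal. Primary granule genes lie at -2.04 and 0.96, and red cell membrane genes at 2.12 and 2.79.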

How the data were processed

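Total RNA of 3 KO and 3 WT LSK libraries was sequenced after rRNA depletion, per the labels' protocols. The submitters' processing notes name HISAT2, SAMtools 1.10, StringTie, DESeq2 and the mouse build mm10; no source used here names the read counter, its strand setting or its annotation. The authors deposited, per the file headers, 1 table for LSK and 1 for lineage-negative cells, normalized separately: the mean of normalized counts over the 6 libraries (a signal), the log2 fold change with its standard error, the Wald statistic (a score), and the p-value with its adjusted value. Values and depth per library were not used here, so no interval for a single library was given; the ribosomal RNA gene Rn45s holds 19.3% of the normalized counts in genes. Of 24542 rows 5 name no gene and were left out; among them reads in no feature made up 26.4% and ambiguous reads 0.752% of the total. Symbols turned into dates (26) were left out of the named genes.

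Fold changes, which the table rounds, were taken as the statistic times the standard error. Level under each label was derived from the pooled mean and the fold change, with 3 libraries on each side. From the deposited log2 fold changes and standard errors, Wald tests for a change beyond 2-fold, for a change under 0.5 log2 unit and for a difference between both tables were computed with Benjamini-Hochberg adjustment over all genes with an adjusted p (Python 3.11.15, numpy 2.4.6, pandas 2.3.3, scipy 1.17.1, matplotlib 3.10.9). On values simulated with normal errors of the deposited size, these tests recovered 98.5%, 73.5% and 97.5% of the true cases. The simulation shares the tests' assumption of such errors and does not check it. Span, transcript length and introns came from GENCODE M21, matched by symbol for 99.3% of genes, and promoters from RefSeq (GRCm38.p6). Named genes were U2af1, the 15 furthest past 2-fold in each direction, and for each of 64 gene lists up to 4 members past 2-fold with the largest change, else 2 with the smallest adjusted p, and the member closest to 0 where any lay within 0.5 log2 unit; sort genes, lineage antigens, Y-linked genes, Xist and further members whose role the text describes were named whatever their value. A few genes that this rule names are not reported here. Members, lists and promoter letters were chosen with earlier results of these data known, so neither they nor their direction are independent support. Printed promoter windows were taken from called genes that rose. Replication genes with E2F letters had a median of 0.41, against 0.44 for all matched replication genes. Alternatives were another floor on the mean, another adjusted p, recentring, and leaving out sex chromosomes, histones or listed genes.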

Additional observations from a re-analysis of the deposited data

Results flagged for a closer look

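Among named genes that reached the mean of 100 in both tables, 22 were called in opposite directions in LSK and lineage-negative cells. Their values were at least 2-fold in each, a size that was not itself tested. Their difference (LSK less lineage-negative, log2) passed its test. It was negative, with the gene lower in LSK and higher in lineage-negative cells, for the platelet protein Mmrn1 (-5.74), the factors Klf12 (-5.45) and Mycn (-4.28), the GTPase Gimap8 (-4.62), the adaptor Lax1 (-4.09), the lipoprotein receptor Vldlr (-3.70), the NF-kB regulator Nfkbiz (-3.63), the GTPase Rras2 (-3.61) and the splicing regulator Rbfox2 (-3.19). It was positive for the granulocyte and monocyte genes Lcn2 (7.02), Ms4a3 (6.73), Hp (6.01), Ly6c2 (5.87), Fcgr3 (5.27), Elane (5.24), Pglyrp1 (4.12) and Cybb (3.51). The others were Pmaip1 (4.36), Id1 (4.21), Ltbp1 (3.07), the endoplasmic reticulum protein Sdf2l1 (2.76) and the cathepsin Ctsz (2.25). Robo4 and Efcc1 were also lower in LSK and called higher in lineage-negative cells. They are not among the 22, since their lineage-negative means were 68.0 and 39.4. Cell population cannot be told apart from BMT and sex make-up in these differences. Reads that could not be assigned to a single gene, which no comparison used, were higher under KO (log2 0.39 in the authors' deposited table).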

How the results depend on the processing

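With no floor on the mean 773 genes were past 2-fold higher. With a floor of 500 in place of 100 the count past 2-fold was 715, with 270 higher and 445 lower, and the effect was more negative in LSK than in lineage-negative cells for 871 genes in place of 1516. For genes without introns the median was -0.14 without histones and 0.42 with a floor of 500. Classes of span and transcript length, and their alternatives, were chosen after seeing the data. Without listed genes the median was 0.21 for spans up to 5 kb, 0.093 for 5 to 10 kb and 0.18 for transcripts of 1 to 2 kb. With a floor of 500 it was 0.44 up to 5 kb and -0.47 above 200 kb. In transcripts of 3 to 6 kb it was -0.16, 0.013 and 0.0072 for spans of up to 5, 5 to 10 and 10 to 20 kb, and in genes spanning 20 to 100 kb it was 0.43, 0.18 and -0.11 for transcripts of up to 1, 1 to 2 and over 6 kb. The cause of these shifts was not tested, apart from the smaller number of genes under a higher floor. Recentring on the median gene, a shift of 0.03, ended the call of 4 of 206 called named genes and turned the sign of 0 of them, and of 12 of the 60 that were not called, such as Sos1 and Arid2. It turned the median of 4 of 64 lists: to -0.02 for the minor spliceosome and for secondary granule genes, -0.01 for monocyte genes and -0.0067 for interferon-stimulated genes. A floor of 500 moved 16 of 64 list medians by more than the typical SE of their members, and no floor 12. Beside those given with the lists, medians at a floor of 500 were 0.88 for mast cell, basophil and eosinophil genes, 0.70 for primary granule genes, -1.29 for lymphoid genes, -1.12 for megakaryocyte genes and -0.25 for sort genes, and imprinted genes turned to 0.03 under both. An adjusted p under 0.01 and leaving out X and Y genes kept each count within 1.5 times its value. No paired analysis was possible because values per library were not used here; for the same reason no library was left out and no other normalization was run, so how far a result rests on 1 library was not tested.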
